A study of Saccharomyces cerevisiae with 21 samples.

Results

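Peroxins are the proteins that build and maintain peroxisomes, and 34 genes of this kind were followed through drying and rehydration of the budding yeast Saccharomyces cerevisiae. They were 26 peroxin genes, the inheritance genes INP1 and INP2, and 6 genes for peroxisomal enzymes and a carrier that lie outside fatty acid oxidation: CTA1, ANT1, PCS60, PCD1, NPY1 and MDH3. The genes were chosen by their symbols, and each was read by its brightest probe set that names a single gene. Each of the 34 had 1 such probe set on the array, of 5656 genes read in this way and 9275 probe sets tested. All 34 probe sets carried the plain suffix that the array's maker gives to sets designed for a single transcript.

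RNA came from the diploid strain BY4743, of S288C background, which carries deletions at HIS3, LEU2 and URA3 in every group. There were 7 groups of 3 Affymetrix YG_S98 arrays, 21 in all: control, 50% dry, dry, and dry cells rehydrated for 15, 45, 90 and 360 min. Per the labels, a culture in YPD, a rich glucose medium, reached an absorbance of 0.8 at 30 degrees C and was moved into medium diluted 20-fold at 22 to 25 degrees C. The control aliquot was taken at that point, before the cells were spread in dishes of 15 ml. The 50% dry cells were taken after 18 h of drying. For the dry cells, 42 h of drying was followed by storage for 72 h at 20% relative humidity, and the rehydrated cells were dry cells put back into the diluted medium. Whether the 3 replicates came from separate cultures is not in the labels, so p-values measure only the spread between these samples, which may be technical.

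Peroxisomes are small organelles bounded by a single membrane, in which yeast breaks down fatty acids and disposes of the hydrogen peroxide that this releases. Their enzymes are made in the cytosol and carried in by receptors that dock at the membrane, release their cargo and are pulled out again for reuse. In yeast, growth on glucose keeps peroxisomes few, and growth on fatty acids makes them many.

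Replicate arrays of a group correlated across probe sets at 0.967 to 0.992. Hybridization runs were inferred from the recorded hybridization times, with a gap of more than 5 min starting a new run. The 3 control arrays formed a run and a scan day of their own. The 90 min and the 360 min arrays formed a run each on another day. The 50% dry, dry, 15 min and 45 min arrays shared runs in part. Run and group therefore cannot be told apart in comparisons that involve control, 90 min or 360 min cells. URA3 gave signals of 0.5 to 5.8 on all 21 arrays and LEU2 of 6 to 107.5, while HIS3 gave 126.5 to 874.5. Both LEU2 and HIS3 were highest in control cells. LEU2 gave 75.1 to 107.5 in control and 47.2 to 53.8 in 50% dry cells, and at most 41.5 in the later groups. HIS3 gave 806 to 874.5 and 214.3 to 249.3, and at most 301.6 later. The part of each gene that these probe sets read is not given in the sources used here, so the HIS3 and LEU2 signals do not test the deletions. Genes that a diploid keeps off (11 mating type genes, STE2 and the pheromone genes among them) summed to 748.9 to 966.6 in control cells. In the dried and rehydrated groups they summed to 654.5 to 1084.3. These sums hide moves in both directions. MFA1 gave 5.4 to 27.3 in control and 144.9 to 182.8 in 50% dry cells, and FUS3 5.3 to 15.4 and 49.9 to 125.5. MF(ALPHA)1 gave 85.7 to 119.6 and 15.3 to 16.3. In control cells MFA2 gave 220.2 to 306.1 and STE4 233.6 to 274, above the median signal of all probe sets, 177.4. Across the groups, 12 genes of sporulating cells had a median signal of 13.95 to 23.9. They summed to 3363.5 to 3717.7 in 50% dry cells, against 341.1 to 446.4 in control cells, where IME1, an early regulator of meiosis, gave 3061.3 to 3428 against 138.8 to 244.8. As a sign of RNA quality, the 3' probe set of ACT1 was compared with its 5' probe set, and the log2 difference averaged -0.57 in control cells, 0.76 in 50% dry, 0.94 in dry, 1.28 at 15 min, 1.79 at 45 min, 2.24 at 90 min and 2.71 at 360 min. The same difference did not follow that course throughout in the other 2 genes with such probe sets. For SPT15 it averaged 1.48 in control cells, 1.64 in 50% dry, 1.05 in dry, 1.59 at 15 min, 2.18 at 90 min and 2.74 at 360 min, with 45 min between its neighbours. For SRB4 it averaged 0.998 in control cells, 1.38 in 50% dry, 1.61 in dry, 2.05 at 15 min, 2.38 at 45 min, 2.65 at 90 min and 2.36 at 360 min.

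Signals given below are the deposited ones, on a linear scale. Each change is a difference of group means in quantile-normalized log2 signal, with its standard error from limma and 3 arrays per group. To be called, a gene needed a change of at least 2-fold and a p under 0.05 after Benjamini-Hochberg adjustment over all 9275 probe sets. Array signals are relative to the total on the array, so more RNA of a gene per cell and a larger share of the RNA cannot be told apart. All 34 genes differed among the 7 groups by limma's moderated F test, with adjusted p from 2.976e-19 to 0.01389, against 82.5% of all probe sets.

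**Figure D1:**
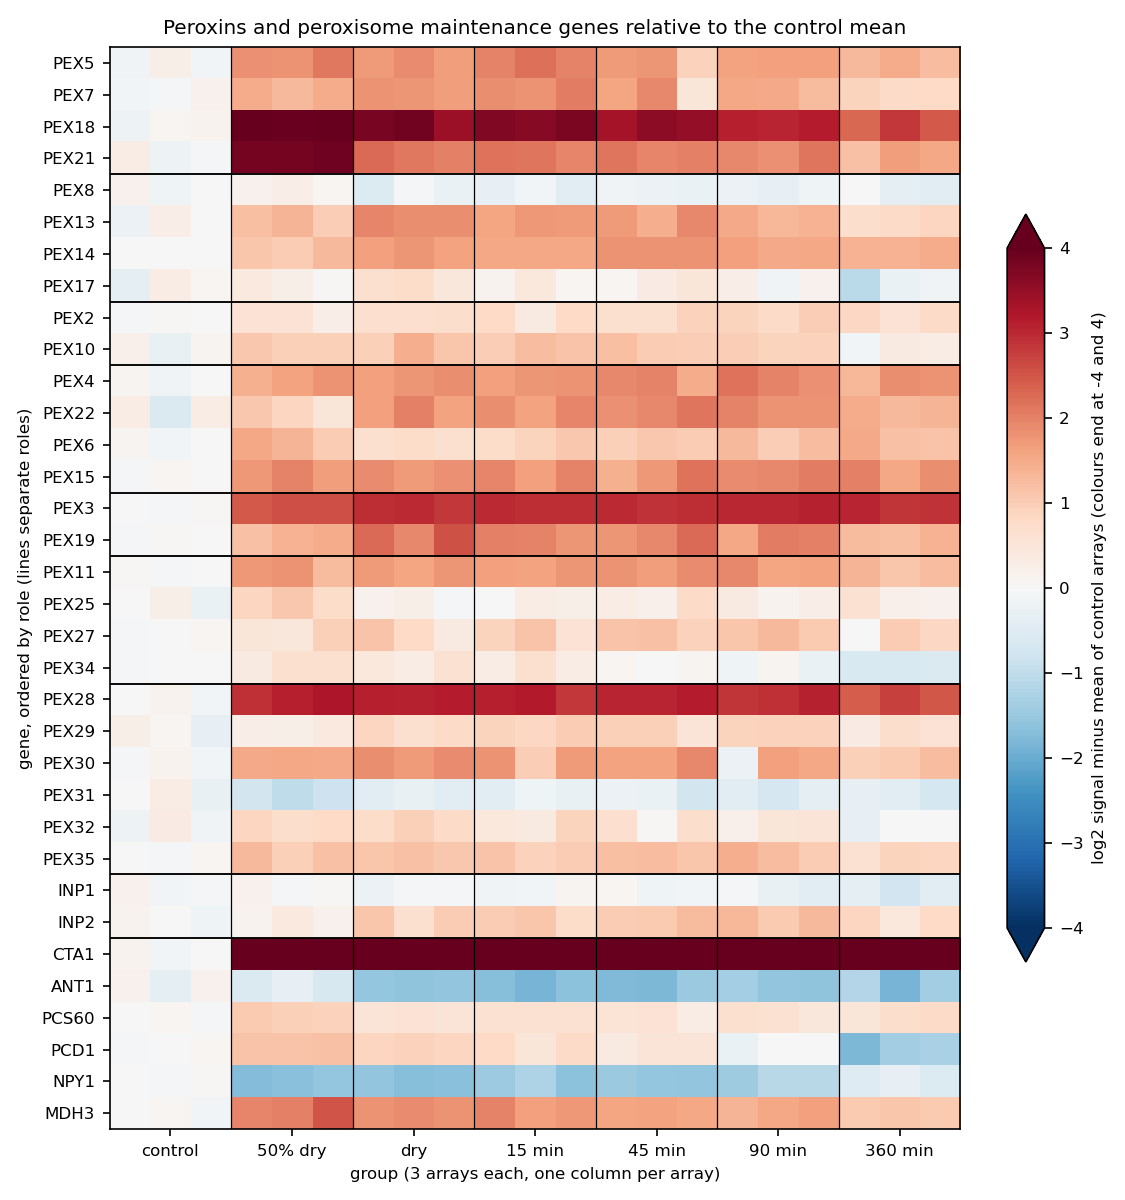
Log2 signal of the 34 genes (rows, grouped by role) on each of the 21 arrays (columns, 3 per group), as the difference from the mean of the 3 control arrays. Colours run from blue (lower than control) to red (higher) and end at -4 and 4. CTA1, PEX18, PEX28 and PEX3 are red from the 50% dry arrays to 360 min, while NPY1 and ANT1 are blue.

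Which genes changed in the first 18 h of drying was read from 50% dry against control cells. All 4 import receptor genes rose, led by PEX18 at 16.5-fold and PEX21 at 14.4-fold. So did 2 of 4 genes for docking and its link to later steps, and 3 of 4 receptor recycling genes. Neither of the ligase genes was called. The membrane assembly gene PEX3 rose 5.82-fold and the catalase gene CTA1 51.5-fold. Of the 34 genes, 18 rose (52.9%), 1 fell and 15 did neither. In the whole array 13.1% of probe sets rose and 13.9% fell, 26.9% in all. The median change of the 34 was 1.14, against -0.02 for all probe sets. The 3 arrays of 50% dry cells all lay above the 3 of control cells for 26 of the genes and all below for 2, against 31.4% and 33.4% of all probe sets. The adjusted p of the 19 called genes lay between 8.112e-20 and 0.0004677.

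The receptors carry folded proteins to the peroxisome. PEX5 is the receptor for enzymes with a signal at their C-terminal end and PEX7 that for a signal near the N-terminal end. PEX18 and PEX21 encode partly redundant co-receptors that PEX7 needs.

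The signal of PEX18 was 32.5, 41.6 and 45.3 in control cells, 922.5, 882.8 and 1010.5 in 50% dry and 828.8, 858.4 and 645.7 in dry cells. After rehydration it was 784.0, 709.2 and 774.7 at 15 min, 544.0, 651.6 and 626.7 at 45 min, 453.7, 451.3 and 484.8 at 90 min, and 201.8, 316.1 and 226.8 at 360 min. Every array of the dried and rehydrated groups lay above the control arrays, and those at 360 min lay below those at 90 min. PEX18 rose by 4.04 ± 0.13 in 50% dry against control cells (adjusted p = 5.382e-15).

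PEX21 gave 56.1, 33.4 and 38.8 in control cells, 825.5, 834.8 and 905.5 in 50% dry and 308.2, 266.6 and 245.6 in dry cells. It gave 275.4, 251.1 and 223.7 at 15 min, 242.9, 208.0 and 218.5 at 45 min, 190.4, 190.9 and 236.7 at 90 min, and 100.4, 139.7 and 122.4 at 360 min. Its peak lay in the 50% dry cells alone, with no overlap with any other group. The rise over control was 3.85 ± 0.14 (adjusted p = 3.262e-14).

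PEX5 gave 102.7, 129.8 and 100.7 in control cells, 462.5, 462.1 and 603.1 in 50% dry and 456.3, 519.9 and 437.2 in dry cells. It gave 553.7, 602.4 and 540.8 at 15 min, 409.4, 429.1 and 232.5 at 45 min, 362.0, 393.7 and 385.5 at 90 min, and 230.4, 280.7 and 225.4 at 360 min. The third array at 45 min stood apart from the other 2 of its group. PEX5 rose by 1.91 ± 0.17 in 50% dry against control cells. PEX7 averaged 541 ± 50.8 in 50% dry and 173 ± 18.4 in control cells (SD, n = 3 each) and rose by 1.42 ± 0.23, and the same array at 45 min was low for it, at 257.8 against 560.9 and 724.5.

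Receptors dock at PEX13, PEX14 and PEX17, and PEX8 sits inside the organelle and links docking to the later steps. PEX14 averaged 925 ± 107 in 50% dry and 387 ± 9.8 in control cells (SD, n = 3 each) and rose by 1.14 ± 0.07. PEX13 gave 360.1, 406.2 and 332.7 in 50% dry against 116.0, 162.0 and 131.4 in control cells and rose by 1.17 ± 0.13. With 50% of the median signal added in place of 10% before the log, PEX13 stood at 0.90 and was not called. PEX17 differed by 0.23 ± 0.22 (adjusted p = 0.4143) and PEX8 by 0.18 ± 0.13 (adjusted p = 0.2678, and -0.09 with median-centred arrays), and after normalization the groups overlapped in both.

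Docked receptors are tagged with ubiquitin by a ligase that includes PEX2 and PEX10, and neither gene was called. PEX10 differed by 0.98 ± 0.14 (adjusted p = 8.894e-06), just short of 2-fold, and PEX2 by 0.48 ± 0.12 (adjusted p = 0.002284). PEX10 passed the fold minimum with the scaling as deposited (1.13), with 1% of the median added (1.04), and without the first or the third control array or the second or the third 50% dry array (1.01 to 1.08).

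The receptors are then drawn out again. PEX4 is the ubiquitin-conjugating enzyme and PEX22 its anchor in the membrane, and PEX6 is part of the ATPase that pulls, held at the membrane by PEX15. PEX15 gave 170.0, 183.4 and 172.0 in control cells, 667.9, 791.7 and 673.5 in 50% dry and 780.4, 689.7 and 741.7 in dry cells. It gave 824.7, 614.7 and 795.9 at 15 min, 521.0, 635.3 and 865.3 at 45 min, 688.0, 733.2 and 789.6 at 90 min, and 653.9, 467.7 and 599.6 at 360 min. All later arrays lay above the control arrays, and in deposited signal those at 360 min lay below those of 50% dry, dry and 90 min cells. After quantile normalization 360 min differed from dry cells by 0.01 ± 0.15 (adjusted p = 0.9734), and its arrays overlapped those of dry and 90 min cells. PEX15 rose by 1.80 ± 0.15 in 50% dry against control cells.

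PEX4 gave 50.4, 38.8 and 45.6 in control cells, 160.6, 190.3 and 225.5 in 50% dry and 200, 219.8 and 230.3 in dry cells. It gave 188.7, 192.2 and 210.7 at 15 min, 207.5, 224.5 and 148.0 at 45 min, 240.2, 224.6 and 194.4 at 90 min, and 115.1, 164.3 and 153.8 at 360 min. All later arrays lay above the control arrays. The rise to 50% dry was 1.61 ± 0.16, and 0.96 with 50% of the median added, which ended the call.

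PEX22 gave 475.4, 227.4 and 450.7 in control cells, 821.3, 722.7 and 579.5 in 50% dry and 1263.5, 1567.3 and 1214.9 in dry cells. It gave 1450.5, 1204.2 and 1505.7 at 15 min, 1362.7, 1466.1 and 1729.1 at 45 min, 1525.0, 1364.3 and 1342.3 at 90 min, and 922.7, 823.0 and 847.6 at 360 min. Its 50% dry arrays lay between the control and the dry arrays, with no overlap on either side. The change in 50% dry against control cells, 0.81 ± 0.20 (adjusted p = 0.001572), was under 2-fold. PEX6 averaged 925 ± 143 in 50% dry and 344 ± 35.5 in control cells (SD, n = 3 each) and rose by 1.30 ± 0.13.

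PEX3 and PEX19 put proteins into the peroxisomal membrane, PEX19 as the carrier in the cytosol and PEX3 as its dock. PEX3 gave 305.6, 263.4 and 297.6 in control cells, 1701.5, 1863.2 and 1864.4 in 50% dry and 2272.4, 2304.0 and 2102.5 in dry cells. It gave 2366.0, 2388.7 and 2344.9 at 15 min, 2561.9, 2353.6 and 2479.1 at 45 min, 2659.8, 2580.1 and 2785.8 at 90 min, and 2784.6, 2340.6 and 2393.5 at 360 min. The signal stayed high to the last time, with the 360 min arrays above all those of 50% dry cells. PEX3 rose by 2.54 ± 0.07 in 50% dry against control cells.

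PEX19 gave 162.8, 170.0 and 164.2 in control cells, 429.6, 503.3 and 561.1 in 50% dry and 935.9, 764.6 and 1128.9 in dry cells. It gave 799.9, 739.5 and 656.3 at 15 min, 614.5, 699.6 and 870.8 at 45 min, 511.9, 760.3 and 738.6 at 90 min, and 342.0, 340.7 and 375.0 at 360 min. The dry arrays lay above the 50% dry ones, which lay above the control arrays. The rise to 50% dry was 1.35 ± 0.16 (adjusted p = 4.65e-07).

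PEX11, PEX25, PEX27 and PEX34 act in the growth and division of peroxisomes. PEX11 averaged 2848 ± 525 in 50% dry and 1016 ± 70.1 in control cells (SD, n = 3 each) and rose by 1.61 ± 0.12. PEX25 differed by 0.90 ± 0.17, PEX27 by 0.63 ± 0.23 and PEX34 by 0.55 ± 0.11, with adjusted p from 0.0001118 to 0.02677. None of these 3 reached 2-fold, although in each the 50% dry arrays lay above the control arrays. PEX25 passed it with the deposited scaling (1.05) and without the second control array (1.02).

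PEX28 to PEX32 set the size and number of peroxisomes, some of them from the endoplasmic reticulum, and PEX35 affects their number. Of these 6 genes 3 rose and 3 did neither. PEX28 gave 59.9, 64.5 and 52.9 in control cells, 575.4, 679.2 and 750.5 in 50% dry and 700.0, 685.6 and 710.0 in dry cells. It gave 697.4, 677.9 and 567.0 at 15 min, 607.4, 607.7 and 657.3 at 45 min, 520.1, 566.6 and 613.7 at 90 min, and 305.1, 399.3 and 326.2 at 360 min. The 360 min arrays fell below all those from 50% dry to 90 min and remained above the control arrays. PEX28 rose by 3.09 ± 0.11 in 50% dry against control cells.

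PEX30 rose by 1.53 ± 0.32 and PEX35 by 1.14 ± 0.12. PEX30 gave 780.4, 813.5 and 823.6 in 50% dry against 243.2, 268.4 and 226.4 in control cells, and its standard error takes in the 90 min group, where 1 array stood at 203.2 beside 824.9 and 763.7. PEX35 was at 0.87 with 50% of the median added, where it was not called. PEX29 differed by 0.30 ± 0.13 (adjusted p = 0.06756), PEX32 by 0.78 ± 0.19 (adjusted p = 0.001961) and PEX31 by -0.86 ± 0.17 (adjusted p = 0.0001776). PEX31 was the peroxin gene with a lower mean in 50% dry than in control cells, and it passed 2-fold once the third control array was left out (-1.02).

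INP1 keeps peroxisomes in the mother cell and INP2 ties them to the motor that takes them into the bud. INP1 differed by 0.05 ± 0.13 and INP2 by 0.23 ± 0.17 (adjusted p of 0.7685 and 0.2465), with groups that overlapped after normalization in both. INP2 stood low in all groups, with 29.5 as its lowest and 108.1 as its highest signal.

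Among the enzymes, CTA1 encodes the peroxisomal catalase, which breaks down hydrogen peroxide. It gave 121.2, 94.9 and 103.4 in control cells, 6141.1, 5468.3 and 5002.9 in 50% dry and 4616.2, 4616.6 and 4938.8 in dry cells. It gave 4543.8, 5654.7 and 4772.0 at 15 min, 6170.7, 5734.0 and 5551.9 at 45 min, 6406.7, 5440.9 and 5674.4 at 90 min, and 5378.2, 5114.7 and 5393.1 at 360 min. The lowest of the later arrays, at 4543.8, was far above the highest control array. CTA1 rose by 5.69 ± 0.08 in 50% dry against control cells.

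MDH3, the peroxisomal malate dehydrogenase that regenerates NAD+, gave 1377.1, 1364.6 and 1241.6 in control cells, 4749.9, 4587.0 and 4944.4 in 50% dry and 3564.2, 3662.8 and 3740.4 in dry cells. It gave 4000.8, 3800.0 and 3887.9 at 15 min, 3757.9, 3818.6 and 3586.0 at 45 min, 3406.0, 3592.9 and 3894.8 at 90 min, and 2614.3, 2935.2 and 2763.6 at 360 min. The 50% dry arrays were the highest, and the 360 min arrays lay below all the other dried and rehydrated groups and above the control arrays. The rise to 50% dry was 2.17 ± 0.12.

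PCD1 encodes a hydrolase of the Nudix type that cleaves coenzyme A and its derivatives. Its signal was 343.5, 347.5 and 369.5 in control cells, 828.3, 843.2 and 882.0 in 50% dry and 743.0, 767.4 and 723.7 in dry cells. It was 704.7, 540.5 and 658.2 at 15 min, 471.1, 532.3 and 537.6 at 45 min, 282.4, 365.9 and 358.0 at 90 min, and 83.5, 106.4 and 113.0 at 360 min. PCD1 rose by 1.15 ± 0.11 in 50% dry against control cells, and its arrays at 360 min lay below all others of the course.

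NPY1, a Nudix hydrolase that acts on NADH, was the gene that fell, by 1.66 ± 0.11 (adjusted p = 1.888e-10), with 183.9, 191.5 and 220.4 in 50% dry against 637.8, 551.7 and 619.6 in control cells. PCS60, for an enzyme that activates acids with coenzyme A, averaged 1376 ± 37.1 in 50% dry and 707.5 ± 29.0 in control cells (SD, n = 3 each). Its change of 0.97 ± 0.09 was just short of 2-fold, with an adjusted p of 1.188e-08, and 1.01 without the second control array. ANT1, which carries ATP into the peroxisome, differed by -0.51 ± 0.17 (adjusted p = 0.01648), with 224.3, 269.1 and 232.3 in 50% dry against 366.4, 231.7 and 347.5 in control cells.

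**Figure D2:**
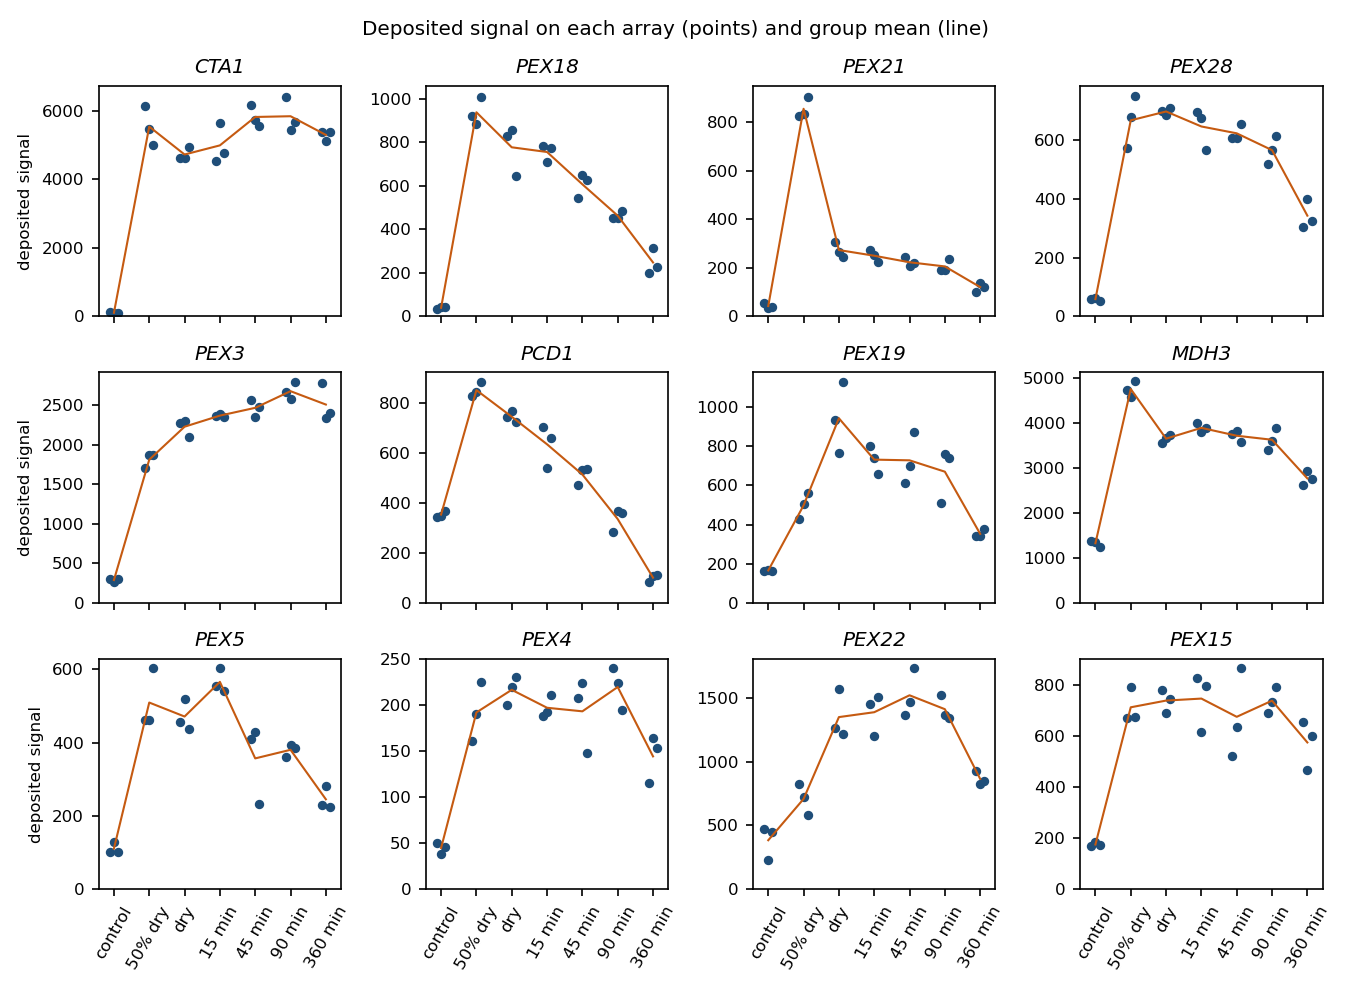
Deposited signal (vertical axis, linear, from 0) on each array of the 7 groups for the 12 genes with the widest range of group means, with points for arrays and a line through the group means. PEX21 peaks in 50% dry cells, PEX3 and CTA1 stay high to 360 min, and PCD1 ends below its control level.

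Water loss and the time spent in the diluted medium changed together between these 2 groups and cannot be told apart. The ACT1 3' minus 5' difference, at 0.76 ± 0.26 in 50% dry and -0.57 ± 0.33 in control cells (SD, n = 3 each), and the IME1 signal moved with the same groups, while SPT15 gave 1.64 ± 0.20 and 1.48 ± 0.17 and SRB4 1.38 ± 0.13 and 0.998 ± 0.24, and their part in these changes was not tested.

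Other genes of the pathway are described by lists chosen with earlier results of these data known. Of 14 genes of fatty acid oxidation, 13 rose and 1 fell in 50% dry against control cells, with a median of 4.04. In the whole array 13.1% of probe sets rose and 13.9% fell, shares against which these lists are set. The carnitine acetyltransferase gene CAT2 rose by 4.98 ± 0.10, the acyl-CoA oxidase gene POX1 by 4.75 ± 0.15 and PXA1, for a subunit of the fatty acid importer, by 4.30 ± 0.09, while the fatty acid transport gene FAT1 fell by 1.15 ± 0.13. Of 9 genes of division and of the breakdown of peroxisomes by autophagy, 6 rose, 1 fell and 2 did neither (median 1.24). The autophagy scaffold gene ATG11 rose by 3.004 ± 0.12, ATG36, the receptor that marks peroxisomes for breakdown, by 2.32 ± 0.11, and ATG1 by 1.88 ± 0.12, while the dynamin gene VPS1, which splits peroxisomes, fell by 1.19 ± 0.28.

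Of 7 regulators of these genes, 3 rose, 1 fell and 3 did neither (median 0.17), beside the same 13.1% and 13.9% of all probe sets. OAF1 and PIP2, which together form the activator that answers to oleate, rose by 1.33 ± 0.08 and by 1.40 ± 0.09, and ADR1, an activator used when glucose is absent, by 1.29 ± 0.11. SNF4, a subunit of the kinase needed without glucose, fell by 1.70 ± 0.16. Of 10 further enzymes with a peroxisomal pool, 3 rose, 1 fell and 6 did neither (median -0.11). The malate synthase gene MLS1 rose by 6.05 ± 0.17, the citrate synthase gene CIT2 by 3.53 ± 0.10 and STR3, of sulfur amino acid metabolism, by 1.27 ± 0.09, and the hydrolase gene FSH3 fell by 1.26 ± 0.16.

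The step from 50% dry to dry cells covers the end of drying and the dry storage. Few of the genes changed: 2 fell, none rose and 32 did neither, and the median was 0.03 against 0.02 for all probe sets. In the whole array 3.06% of probe sets rose and 5.05% fell, 8.11% in all. The co-receptor gene PEX21 fell by 1.72 ± 0.14 (adjusted p = 2.768e-08), to 308.2, 266.6 and 245.6 in dry cells, against 825.5, 834.8 and 905.5 in 50% dry cells. Its fellow co-receptor gene PEX18 differed by -0.35 ± 0.13 (adjusted p = 0.04511). ANT1 fell by 1.07 ± 0.17 (adjusted p = 7.495e-05), to 109.2, 109.1 and 104.3 in dry cells, against 224.3, 269.1 and 232.3 in 50% dry cells.

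Upward differences under 2-fold included PEX22 by 0.95 ± 0.20, PEX19 by 0.89 ± 0.16 and PEX13 by 0.72 ± 0.13, with adjusted p from 0.0001844 to 0.0007928. PEX22 passed 2-fold once the first 50% dry array was left out (1.09), or the first or the third dry array (1.01 and 1.03), and PEX19 once the second dry array was left out (1.05). Without a fold minimum, 8 genes were higher and 8 lower, against 18.6% and 16.5% of all probe sets. PEX25 (-0.78 ± 0.17) and PEX6 (-0.64 ± 0.13) were among those lower. The ANT1 fall missed 2-fold without the second 50% dry array (-0.98), and with 50% of the median added (-0.75). A single dry array was hybridized in the run of the 50% dry arrays, and within that run PEX21 differed by -1.57, ANT1 by -1.03 and PEX22 by 0.85.

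Dry cells were also set against control cells, a comparison that shares its arrays with those above. Here 18 of the 34 rose and 2 fell, the median was 1.14, and 14 did neither, against 17.5% of probe sets higher and 17.5% lower in the whole array, 35% in all. CTA1 stood higher by 5.63 ± 0.08, PEX18 by 3.69 ± 0.13, PEX28 by 3.11 ± 0.11, PEX3 by 2.92 ± 0.07 and PEX19 by 2.24 ± 0.16. PEX22 (1.76 ± 0.20) and PEX10 (1.16 ± 0.14) passed the threshold here, and PEX6 (0.67 ± 0.13) and PCD1 (0.89 ± 0.11) did not. PCD1 passed with the deposited scaling (1.04), as did PEX32 (1.01) and INP2 (1.06). INP2, at 0.92 ± 0.17 here, also passed without the second dry array (1.06) and with 1% of the median added (1.19). With 50% of the median added, PEX10 (0.94) and PEX35 (0.85) were not called. NPY1 fell by 1.64 ± 0.11 and ANT1 by 1.58 ± 0.17. The adjusted p of the 20 called genes lay between 7.872e-20 and 6.899e-05. The ACT1 3' minus 5' difference was 0.94 ± 0.03 in dry and -0.57 ± 0.33 in control cells (SD, n = 3 each). That of SPT15 was lower in dry cells, at 1.05 ± 0.66 against 1.48 ± 0.17, and that of SRB4 higher, at 1.61 ± 0.31 against 0.998 ± 0.24, and their part was not tested.

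**Figure D3:**
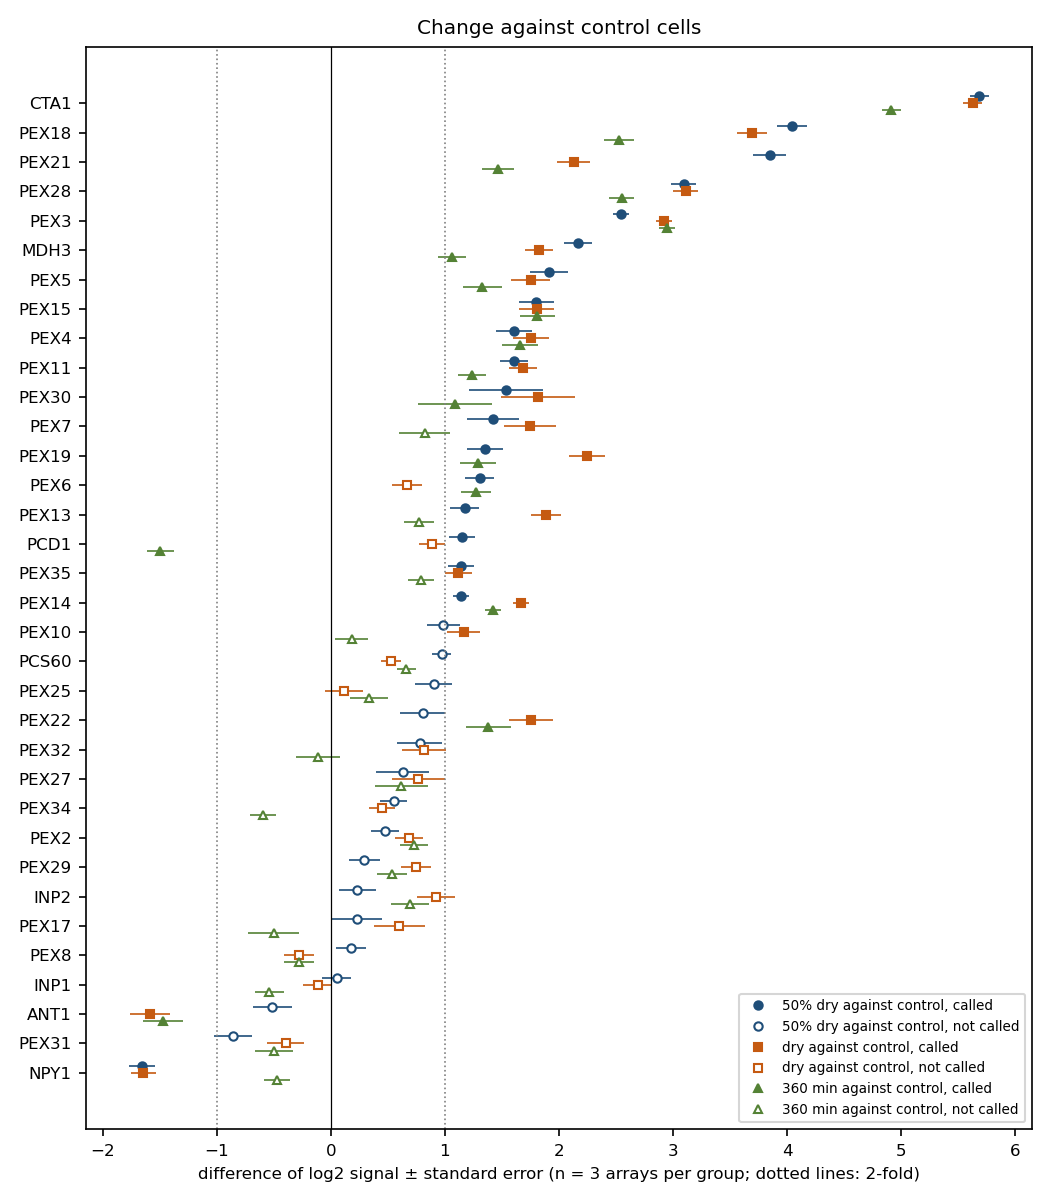
Difference of log2 signal against control cells with its standard error (horizontal axis) for each of the 34 genes (rows) in 50% dry, dry and 360 min cells, filled where called. The 3 comparisons share the control arrays. PEX15 and PEX4 lie close together in all 3, PEX21 moves left after 50% dry, and PCD1 lies right of 0 in 50% dry and left of 0 at 360 min.

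The first 90 min of rehydration asks how soon the transcripts changed after water was added. No member was called at any of the 3 steps, in which 0.119% (15 min against dry), 0.0755% (45 min against 15 min) and 0.173% (90 min against 45 min) of all probe sets were called. At an unadjusted p under 0.05 by limma, 1, 4 and 5 of the 34 genes differed. How many of all probe sets passed this unadjusted threshold is not given here, so these counts cannot be judged against it. The widest change was 0.38 in the first step, 0.59 in the second and 0.74 in the third, and the medians were -0.02, 0.01 and -0.06. Cells at 90 min were not set against dry cells directly, so changes that build up over the steps can be missed. The log2 mean of PCD1 went from 9.45 in dry cells to 9.25 at 15 min, 9.04 at 45 min and 8.47 at 90 min. That of PEX6 rose, from 9.19 to 9.43, 9.55 and 9.70 in the same groups. Such courses ran both ways and were not tested.

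PCD1 had the lowest adjusted p of these steps, 0.008655 in 90 against 45 min, where it differed by -0.57 ± 0.11, with 282.4, 365.9 and 358.0 at 90 min against 471.1, 532.3 and 537.6 at 45 min. In 45 against 15 min, PEX5 differed by -0.59 ± 0.17 (adjusted p = 0.1117) and PEX7 by -0.56 ± 0.23 (adjusted p = 0.2796), where the third array at 45 min was low for both. The widest change of 90 against 45 min was that of PEX30, -0.74 ± 0.32 (adjusted p = 0.2282), with the array at 203.2 in the 90 min group. The mean 3' minus 5' differences of ACT1, SPT15 and SRB4 were higher in each of these groups than in the one before it, and their part was not tested.

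**Figure D4:**
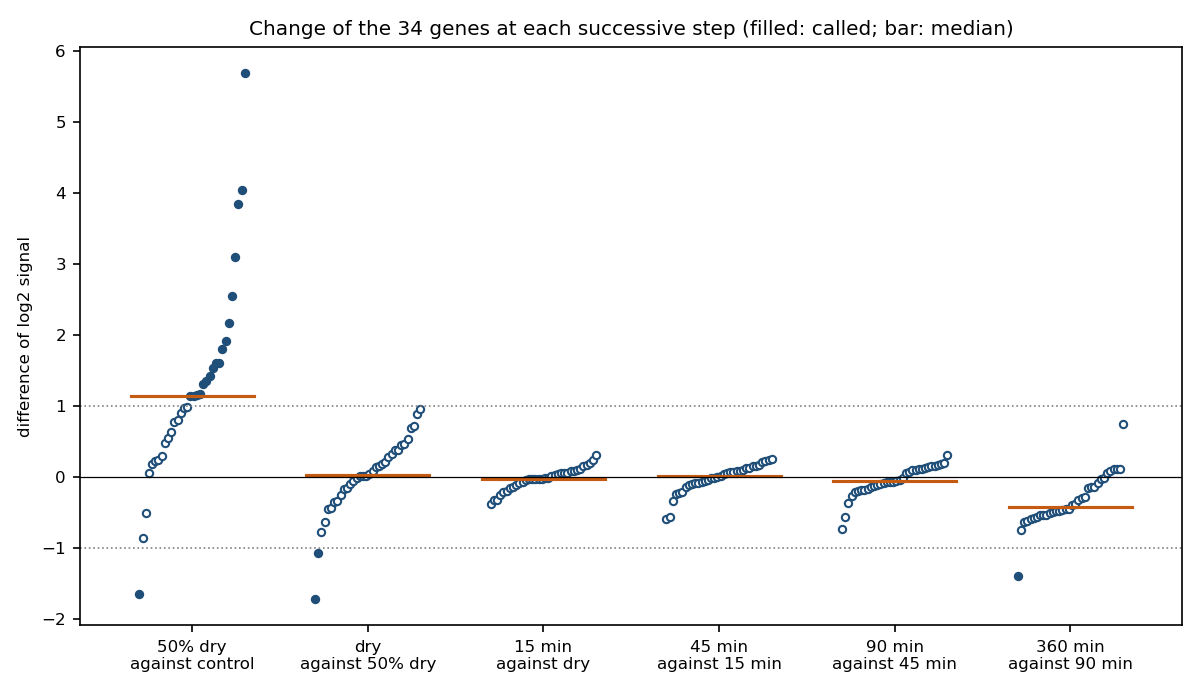
Difference of log2 signal of the 34 genes at each of the 6 successive steps (horizontal axis), with 1 point per gene sorted by value, filled where called, and a bar at the median. The first step holds 19 filled points, the 3 early rehydration steps none, and the last step shifts the median to -0.43.

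Of the 34 genes 6 had a higher mean at 360 than at 90 min, and the others a lower one, while 4560 of all 9275 probe sets were higher. PCD1 was the one called: it fell by 1.40 ± 0.11 (adjusted p = 6.588e-08), to 83.5, 106.4 and 113.0 at 360 min, against 282.4, 365.9 and 358.0 at 90 min. In the whole array 3.82% of probe sets rose and 3.07% fell, 6.89% in all. The median of the 34 was -0.43, against -0.01 for all probe sets. Without a fold minimum 17 were lower and 1 higher, against 21.9% and 18.4% of all probe sets. The gene higher was NPY1, by 0.75 ± 0.11. PEX10 differed by -0.74 ± 0.14, and by -1.03, which was called, with the deposited scaling. The difference of CTA1 was -0.53 ± 0.08 after quantile normalization, -0.14 with the deposited scaling and 0.09 with median-centred arrays, so its direction depends on the scaling. The median of the 34 stayed below 0 under both other scalings, at -0.54 as deposited and -0.31 median-centred. With median-centred arrays, the calls in the whole array split into 790 higher and 216 lower, against 354 and 285 here.

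The whole of the rehydration, 360 min against dry cells, left 28 genes uncalled, while 5 fell and 1 rose (14.7% and 2.94%). In the whole array 11.4% of probe sets rose and 11.7% fell, 23.1% in all. PCD1 fell by 2.38 ± 0.11 (adjusted p = 8.185e-12), a 5.20-fold drop. PEX18 fell by 1.16 ± 0.13, PEX13 by 1.11 ± 0.13, PEX17 by 1.10 ± 0.22 and PEX34 by 1.04 ± 0.11, with adjusted p from 3.296e-07 to 0.0003211. NPY1 rose by 1.17 ± 0.11, to 316.6, 380.6 and 312.2 at 360 min, against 216.8, 197.6 and 198.4 in dry cells.

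Apart from that of PCD1, these calls lie near 2-fold and several depend on the scaling, which put the median of all probe sets at -0.20 as deposited and at 0.27 with median-centred arrays. The median of the 34 was -0.40 here, -0.56 as deposited and -0.10 median-centred. With the deposited scaling 11 of the 34 fell and none rose. The share of all probe sets that fell under this scaling is not given here, so the 11 cannot be judged against it. PEX7, PEX10, PEX19, PEX21, PEX30 and PEX32 joined the falls (-1.08 to -1.43), and NPY1 stood at 0.67 and was not called. With 50% of the median added, PCD1 and PEX18 were the 2 called. With median-centred arrays 4 were called, and PEX17 (-0.88) and PEX34 (-0.99) were not. The fall of PEX17 also missed 2-fold without the first 360 min array (-0.82), and that of PEX34 without the third dry array (-0.96). PEX10 (-0.98 ± 0.14), PEX19 (-0.96 ± 0.16) and PEX32 (-0.93 ± 0.19) were just short of 2-fold. PEX10 passed it without the first or the third dry array or the second or the third 360 min array (-1.01 to -1.09). PEX19 passed it without the second dry or the third 360 min array (-1.11 and -1.01), and PEX32 without the second 360 min array (-1.002). For 8 of the genes, none of which reached 2-fold here, the direction depended on the scaling. CTA1 differed by -0.71 ± 0.08, but by 0.16 as deposited and 0.63 median-centred. MDH3 differed by -0.76 ± 0.12, by -0.40 as deposited and by 0.07 median-centred, and PEX11 by -0.45 ± 0.12, -0.28 and 0.19. The other 5 were near 0 or higher after quantile normalization and lower as deposited: PCS60 (0.13 and -0.15), PEX25 (0.22 and -0.27), ANT1 (0.11 and -0.23), PEX15 (0.01 and -0.36) and PEX8 (0.00 and -0.33). The ACT1 3' minus 5' difference was 2.71 ± 0.17 at 360 min and 0.94 ± 0.03 in dry cells (SD, n = 3 each), that of SPT15 2.74 ± 0.28 and 1.05 ± 0.66 and that of SRB4 2.36 ± 0.02 and 1.61 ± 0.31, and their part was not tested.

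Cells at 360 min of rehydration were set against control cells to ask whether the transcripts had returned to their starting level. Of the 34 genes 15 stood higher, 2 lower and 17 did neither, against 19.7% and 21.4% of all probe sets, 41.1% in all, and the median was 0.78 against 0.00. CTA1 was still higher by 4.91 ± 0.08 (30.1-fold), with 5378.2, 5114.7 and 5393.1 at 360 min against 121.2, 94.9 and 103.4 in control cells. PEX3 was higher by 2.95 ± 0.07, PEX28 by 2.55 ± 0.11 and PEX18 by 2.53 ± 0.13. All 4 receptor recycling genes were higher, PEX15 by 1.81 ± 0.15, PEX4 by 1.66 ± 0.16, PEX22 by 1.38 ± 0.20 and PEX6 by 1.27 ± 0.13.

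The other genes called higher were PEX21, PEX14, PEX5, PEX19, PEX11, PEX30 and MDH3, by 1.06 to 1.47. PEX30 was not called with the deposited scaling (0.86, adjusted p = 0.02708), and PEX5, PEX21 and PEX30 not with 50% of the median added (0.98, 0.85 and 0.92). PCD1 was lower by -1.49 ± 0.11 and ANT1 by -1.47 ± 0.17. PEX10, called in dry against control cells, differed here by 0.18 ± 0.14 (adjusted p = 0.2707, and -0.08 with the deposited scaling), and NPY1 by -0.47 ± 0.11 (adjusted p = 0.0008663). PEX7, PEX13 and PEX35 differed by 0.82 ± 0.23, 0.78 ± 0.13 and 0.79 ± 0.12, under 2-fold. The adjusted p of the 17 called genes lay between 8.961e-19 and 0.005913. The ACT1 3' minus 5' difference was 2.71 ± 0.17 at 360 min and -0.57 ± 0.33 in control cells (SD, n = 3 each), that of SPT15 2.74 ± 0.28 and 1.48 ± 0.17 and that of SRB4 2.36 ± 0.02 and 0.998 ± 0.24, and their part was not tested.

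Over the whole course, 25 of the 34 genes had their lowest group mean in control cells (73.5%, against 31.6% of all probe sets), and none had its highest at 360 min (24.1% of all probe sets). The highest mean lay in 50% dry cells for 11 genes (32.4%, against 12.1% of all probe sets). For 7 it lay in dry cells (20.6% against 10.7%) and for 8 at 90 min (23.5% against 6.52%). For 3 it lay in control cells (8.82% against 32.6%) and for 3 at 45 min (8.82% against 5.63%). For 2 it lay at 15 min (5.88% against 8.37%). No gene was called at the successive steps from dry to 90 min, the only comparisons made among these groups. Which of them holds a peak was therefore not settled. The peak can also depend on the scaling: the deposited mean of CTA1 was highest at 90 min (5841), above 50% dry cells (5537). The 3 highest in control cells were ANT1, NPY1 and PEX31. Of the 34 genes 10 were called in none of the 9 comparisons: INP1, INP2, PCS60, PEX2, PEX8, PEX25, PEX27, PEX29, PEX31 and PEX32. The share of all probe sets called in none of the 9 is not given here, so this count cannot be judged against it. Among these 10 genes, PEX2 was called in 360 min against control with median-centred arrays (1.07, adjusted p = 3.505e-07). INP2, PCS60, PEX25, PEX31 and PEX32 each passed in at least 1 of the other settings given above.

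Genes whose products work together differed in how alike their courses were. Over the 7 group means, which all pairs read from the same 21 arrays, the Pearson correlation was 0.953 for PEX5 and PEX7, 0.915 for PEX3 and PEX19, 0.904 for PEX13 and PEX14, 0.892 for PEX4 and PEX22, 0.875 for PEX6 and PEX15 and 0.885 for PEX18 and PEX21. It was 0.602 for PEX2 and PEX10, 0.647 for PEX13 and PEX17 and 0.28 for PEX14 and PEX17. Among the division genes it was 0.913 for PEX11 and PEX27, 0.443 for PEX11 and PEX25 and 0.231 for PEX25 and PEX27. Among the size genes it was 0.776 for PEX28 and PEX29 and 0.747 for PEX30 and PEX32. PEX31 gave -0.484 with PEX32 and -0.603 with PEX30. The Nudix hydrolase genes PCD1 and NPY1 gave -0.707 and the inheritance genes INP1 and INP2 -0.334. These values describe the courses and carry no test. Pairs drawn from different roles were not computed, so whether partners are more alike than other pairs of the 34 cannot be told. A lowest mean in control cells was shared by 25 of the 34 genes.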

How the data were processed

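Per the labels, the authors used Affymetrix GeneChip software, a Wilcoxon signed rank test and a mixed linear model of 2 steps. The deposited values are probe-set intensities on a linear scale. Software version, scaling and build: not given in the sources used here. Trimmed by 2%, the array means were 500.2 to 500.5, and array medians ran from 141.2 to 207.3, a range of 46.8%.

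Gene names came from the platform's annotation; all 34 genes matched the RefSeq gene table. Of 9335 probe sets, 60 control sets were left out. Signals were turned to log2(signal + 17.74), 10% of the median (177.4), and quantile normalized. limma 3.58.1 in R 4.3.3 fitted group means over all 21 arrays (14 residual degrees of freedom, trended moderation), and p-values were Benjamini-Hochberg adjusted over 9275 probe sets. The members, their roles, the gene lists and the tests were chosen with earlier results of these data known. All 34 are named; the 12 with the widest range of group means get the value on every array. Simulated data for 50% dry against control had 200 of 9275 probe sets changed. The fit called 44% of those changed 2-fold and 95.5% of those changed 3-fold, with the right sign. A change simulated at 2-fold lies on the fold minimum of the call, and 82.5% of these had an adjusted p under 0.05. Hybridization runs were inferred from the hybridization times in the deposited run records, which hold no measurement (unit: other). A gap of more than 5 min between arrays started a new run, which gave 6 runs. With 3 arrays per group, their number limits the precision. Tables and plots used Python 3.11.15 with pandas 2.3.3, numpy 2.4.6 and matplotlib 3.10.9. No sequence is shown, since no sequence table was used here.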

Additional observations from a re-analysis of the deposited data

How the results depend on the processing

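No member's called change turned its sign under any alternative. The fold minimum mattered most. Without it the calls among the 34 genes were 29 in 50% dry against control, 16 in dry against 50% dry, 31 in dry against control, 1 in 90 against 45 min, 18 in 360 against 90 min, 20 in 360 min against dry and 29 in 360 min against control. The probe sets called were then 5322, 3258, 5969, 72, 95, 436, 3737, 5460 and 6562, for 50% dry against control, dry against 50% dry, dry against control, 15 min against dry, 45 against 15, 90 against 45 and 360 against 90 min, 360 min against dry and 360 min against control. With 50% of the median added, 1 gene was called in dry against 50% dry and 2 in 360 min against dry, and probe sets were 410 in dry against 50% dry, 7 in 15 min against dry, 4 in 45 against 15 min, 3 in 90 against 45 min, 265 in 360 against 90 min and 1249 in 360 min against dry. With 1% added, probe sets were 35 in 90 against 45 min and 1042 in 360 against 90 min. The deposited scaling gave 2 genes in 360 against 90 min, 11 in 360 min against dry and 18 probe sets in 15 min against dry, and median-centred arrays gave 1006 probe sets in 360 against 90 min. Without the mean trend 3 probe sets were called in 45 against 15 min. A fit of only the arrays compared gave 7 in 15 min against dry, 0 in 45 against 15 min and 9 in 90 against 45 min. With the hybridization run as a block in the 4 groups that share runs, 2 were called in 15 min against dry and 64 in 45 against 15 min. The same 4 groups without a block, a setting chosen after seeing the data, gave 0 in 45 against 15 min, and PEX21 and ANT1 kept their falls in dry against 50% dry under both. Leaving out 1 array at a time gave 19 to 21 genes in 50% dry against control, 1 to 3 in dry against 50% dry, 20 to 21 in dry against control, 5 to 8 in 360 min against dry and 17 in 360 min against control. In the same order, 2489 to 2534, 747 to 795, 3213 to 3280, 2142 to 2277 and 3804 to 3859 of the 9275 probe sets were called. Probe sets ranged from 6 to 13 in 15 min against dry (6 without the third 15 min array) and from 1 to 15 in 45 against 15 min. In 90 against 45 min they ranged from 13 to 30 (30 without the first 90 min array). The F test was passed by 33 to 34 genes, while 82.5% of all probe sets passed it with all arrays kept. Replicate numbers were not taken as pairing: 2 of 27 same-numbered pairs correlated above 0.1 (-0.139 to 0.154). The replicate block changed no member's call, with 19, 2, 20, 0, 0, 0, 1, 6 and 17 genes in the order of the 9 comparisons given above for probe sets. It gave 4 probe sets in 45 against 15 min, and its other probe-set counts are not given here. The cause of these shifts was not tested. The planned search of promoter windows and protein ends was not run.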

Other observations

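Other genes of the pathway, in the lists chosen with earlier results known, were also read at 360 min against control, where 19.7% of all probe sets stood higher and 21.4% lower. Of 14 genes of fatty acid oxidation 11 stood higher, 1 lower and 2 did neither, with a median of 3.15. Of 9 genes of division and peroxisome breakdown 3 stood higher and 1 lower (median 0.82), and of 7 regulators 1 stood higher and 2 lower (median 0.20). Of 10 further enzymes with a peroxisomal pool 3 stood higher and 4 lower (median -0.35). Differences between the lists were not tested. In 360 min against dry cells, where 11.4% of all probe sets rose and 11.7% fell, none of these genes rose, while 2, 2, 2 and 3 fell in the same order of lists.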
